A study of Mus musculus with 6 samples.

Results

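The 10 genes described here encode membrane transporters that carry manganese (Mn) across the plasma membrane or into and out of organelles, together with a pair of P5 ATPases, Atp13a2 and Atp13a1, that are linked to Mn handling but have other described substrates. They were chosen by function, and are called Mn transporters below for short (Slc39a14, Slc39a8, Slc30a10, Slc11a2, Slc11a1, Atp2c1, Atp2c2, Tmem165, Atp13a2 and Atp13a1), from 53715 mouse genes in the count table, and all 10 were found in it. RNA-seq was performed on whole cerebella of male C57BL/6 mice, with 1 library of polyadenylated RNA per mouse. One group of 3 mice received a diet labelled 0 ppm Mn (low-Mn) and the other group of 3 a diet with 35 ppm Mn (normal-Mn), each for 2 weeks. The mice were wild type in both groups and had no other treatment. According to the methods they were 4 weeks old when purchased, whereas the labels call them adult.

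Mn is an essential cofactor that becomes toxic in excess, and its level in a cell is set by uptake, export and storage in organelles. The ZIP proteins ZIP14 (Slc39a14) and ZIP8 (Slc39a8) bring Mn into cells together with zinc and iron, and the zinc transporter relative ZnT10 (Slc30a10) exports Mn. The Golgi needs Mn for its glycosyltransferases and receives it through the pump SPCA1 (Atp2c1) and the carrier TMEM165, and inherited defects of ZIP14, ZIP8, ZnT10 or TMEM165 disturb Mn balance or glycosylation in people. The comparison below asks whether the mRNAs of these transporters differed in the cerebellum when dietary Mn was withdrawn. The study reported a moderate fall in cerebellar Mn on the low-Mn diet, with iron, zinc and copper unaltered.

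None of the Mn transporters passed the test between diets. Levels are given as CPM, a gene's counts relative to the TMM-scaled library size, and the quasi-likelihood test of edgeR over all genes was used for the diets, with a Benjamini-Hochberg adjusted p under 0.05 as the threshold. All but Atp2c2, 9 of the 10 genes, had enough counts to be tested. Of these 9 genes 0 were called, and over all 16123 genes tested 0.595% were called. At an unadjusted p under 0.05 edgeR gave 1 of the 9 genes, Slc11a2, against 12.1% of all genes tested. The CPM of the diets did not overlap for the same 1 gene of 9, against 17.1% of all genes tested. Limma-voom called 0 of the 9 genes and DESeq2 0 of the 6 to which it gave an adjusted p, each with 1 gene at an unadjusted p under 0.05. A log2 fold change above 0 means more in the low-Mn mice. The median of the 9 genes was -0.01, with 3 values above 0 and 6 below, and the median over all genes tested was -0.003.

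**Figure D1:**
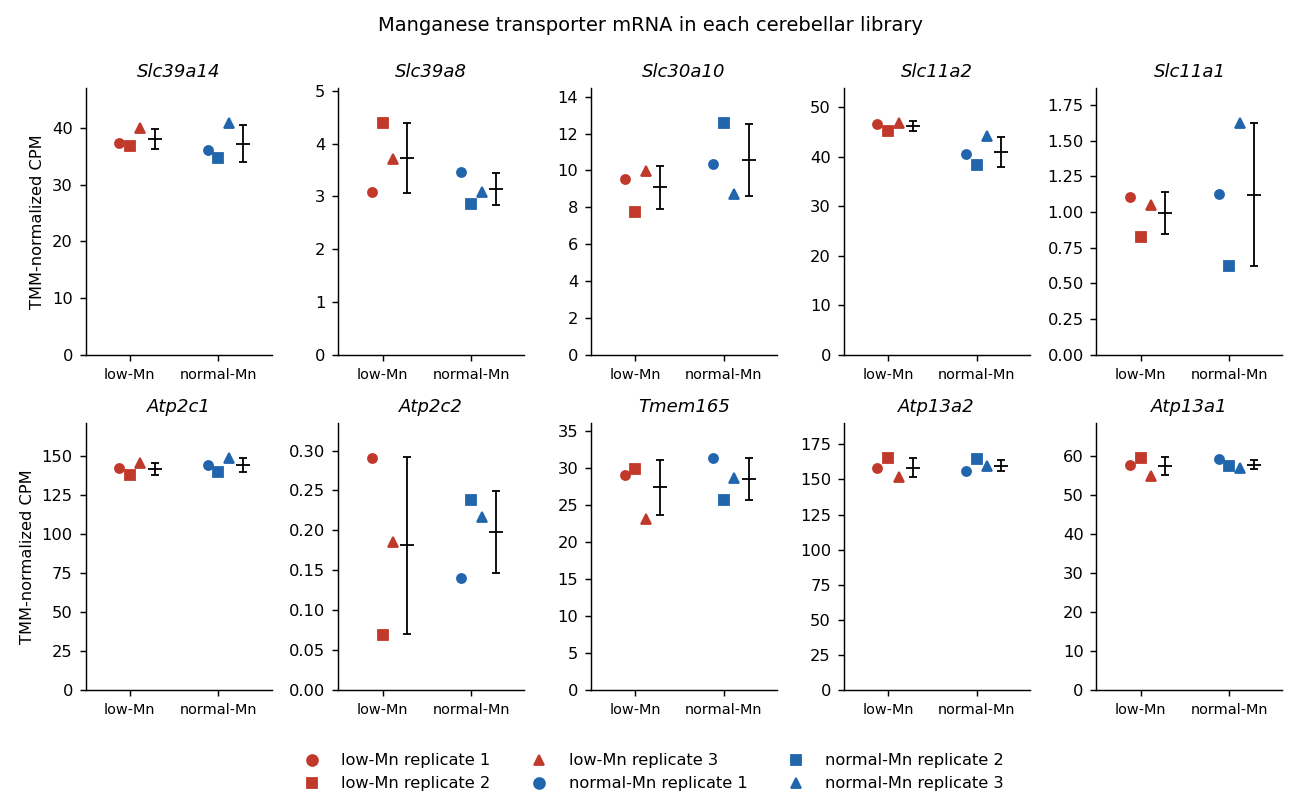
TMM-normalized CPM (y axes, each from 0) of the 10 Mn transporters in the 3 low-Mn (red) and 3 normal-Mn (blue) libraries, with marker shapes for replicate numbers and black bars for the mean ± SD. The diets overlap in every panel but that of Slc11a2, where the low-Mn libraries lie between 45.2 and 46.9 and the normal-Mn libraries between 38.3 and 44.2.

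The low-Mn libraries held between 14548336 and 17124327 counts and the normal-Mn libraries between 18446701 and 21277469. Every low-Mn library was thus shallower than every normal-Mn library, so that depth and diet went together. Lists of cell type markers were read beside the transporters. None of the markers was at 0 counts, which alone does not mark the tissue as cerebellum. Gabra6 of granule neurons had a mean CPM of 636 on the low-Mn and 637 on the normal-Mn diet, and Pcp2 of Purkinje neurons 433 and 422. Other granule neuron markers differed more. Neurod1 had a mean CPM of 369 and 324, without overlap between the diets (edgeR unadjusted p = 0.00233, adjusted p = 0.125), and Cbln1 818 and 858. The log2 fold change was above 0 for 5 of the 8 granule neuron markers and below 0 for 3. None of 8 granule neuron, 7 Purkinje neuron, 7 astrocyte and Bergmann glia, 8 microglia and macrophage, 7 endothelial or 5 blood markers was called by edgeR. Of 8 choroid plexus markers 1 fell (Kl), but 7 had an unadjusted p under 0.05 and a log2 fold change below 0, and the median of the list was -0.26. Of 7 meningeal markers 2 fell (Fn1 and Igf2). Over all genes tested 0.595% were called and 12.1% had an unadjusted p under 0.05 in edgeR. The summed CPM of the list was lower in every low-Mn than in every normal-Mn library for 6 oligodendrocyte markers (5200.1 to 5386 against 5396 to 6039), meningeal markers (296 to 338 against 363 to 409), microglia and macrophage markers (98.6 to 106 against 114 to 116) and astrocyte markers (3290 to 3440 against 3500 to 3600). A sum follows its most abundant genes. Taken singly, the diets did not overlap for 5 of 8 choroid plexus, 4 of 7 meningeal, 3 of 8 microglia and macrophage and 1 of 7 astrocyte markers. They also did not overlap for 2 of 8 granule neuron, 2 of 7 endothelial, 1 of 7 Purkinje neuron and 0 of 5 blood markers. The 2 granule neuron markers (Neurod1 and Zic1) and the 2 endothelial markers (Pecam1 and Ly6c1) were higher in the low-Mn mice. Over all genes tested the diets did not overlap for 17.1%. The log2 fold change was above 0 for 2 of the 7 astrocyte markers (Aldh1l1 and Gjb6). It was also above 0 for 1 microglia and macrophage marker (Aif1) and 1 oligodendrocyte marker (Cldn11). In whole tissue, fewer cells of a type and less RNA per cell cannot be told apart. The part of these cell types in the values of the transporters was not tested.

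Of the ZIP importers at the cell surface, Slc39a14 was expressed at a higher level than Slc39a8. This gene (ENSMUSG00000022094, GRCm38 chromosome 14, 70303469 to 70351425, minus strand) encodes ZIP14, a carrier of Mn, zinc and iron. Its CPM was 37.3, 36.8 and 40.0 in low-Mn replicates 1 to 3 and 36.1, 34.6 and 40.9 in normal-Mn replicates 1 to 3. The highest and the lowest value both came from normal-Mn mice, so the diets overlapped fully. The means were 38.0 ± 1.76 and 37.2 ± 3.29 (SD, n = 3 mice each), and the log2 fold change was 0.03 (standard error, SE, 0.0748, edgeR adjusted p = 0.912). The 95% interval of the fold ran from 0.918 to 1.14.

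Slc39a8 (ENSMUSG00000053897, chromosome 3, 135825279 to 135888572, plus strand) encodes ZIP8, the closest relative of ZIP14. It was counted 53 to 74 times per library. Its CPM was 3.08, 4.40 and 3.70 in the low-Mn mice and 3.46, 2.86 and 3.09 in the normal-Mn mice. Low-Mn replicates 2 and 3 lay above every normal-Mn library, and low-Mn replicate 1 lay below the top normal-Mn value. The log2 fold change of 0.24 was the furthest from 0 among the 9 genes but also one of the least precise (SE 0.23, edgeR adjusted p = 0.737), with an interval from 0.849- to 1.65-fold.

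Slc30a10 (ENSMUSG00000026614, chromosome 1, 185454848 to 185468762, plus strand) encodes ZnT10, the exporter that removes Mn from cells. Its CPM was 9.54, 7.74 and 9.97 in the low-Mn mice and 10.3, 12.6 and 8.71 in the normal-Mn mice. Low-Mn replicate 2 had the lowest value and normal-Mn replicate 2 the highest, while normal-Mn replicate 3 lay below low-Mn replicates 1 and 3. The means were 9.08 ± 1.18 and 10.5 ± 1.95 (SD, n = 3 mice each), and the log2 fold change of -0.22 did not pass (SE 0.15, edgeR adjusted p = 0.617). The interval ran from 0.693- to 1.07-fold. The summed choroid plexus markers were also lowest in low-Mn replicate 2, at a CPM of 2232, and highest in normal-Mn replicate 2, at 3112, but overlapped between the diets in the other libraries, and the part of this tissue in the level of Slc30a10 was not tested. An antisense transcript, Gm2061, covers 9.1% of the exons of Slc30a10.

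**Figure D2:**
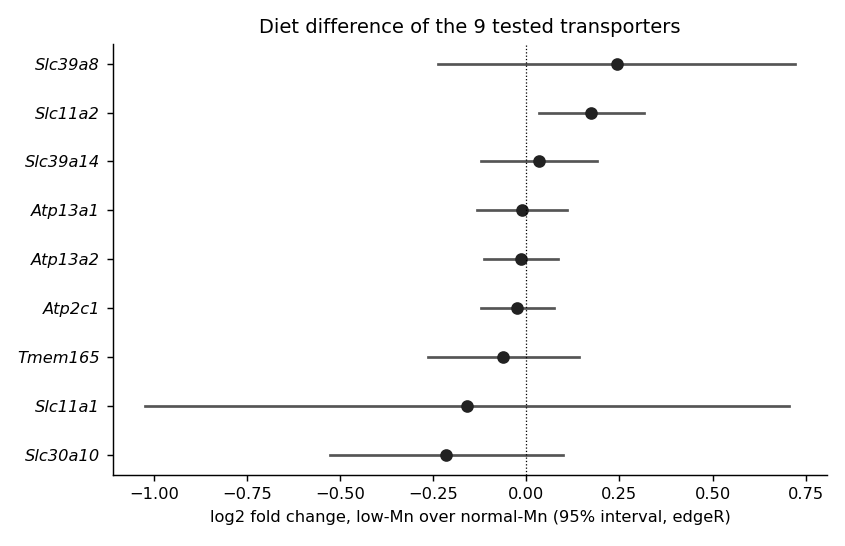
Diet difference of the 9 tested transporters on the log2 scale, low-Mn against normal-Mn (x axis, points) with its 95% interval from edgeR (lines). The intervals of 8 genes include 0, and that of Slc11a2 runs from 0.03 to 0.31, while the widest is that of Slc11a1.

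Slc11a2 was the transporter with the smallest p, although it did not pass. The gene (ENSMUSG00000023030, chromosome 15, 100387898 to 100425072, minus strand) encodes DMT1, which moves iron, Mn and other divalent metals out of endosomes and across the plasma membrane with protons. Its CPM was 46.6, 45.2 and 46.9 in low-Mn replicates 1 to 3 and 40.6, 38.3 and 44.2 in normal-Mn replicates 1 to 3. Every low-Mn library lay above every normal-Mn library, with a gap between 44.2 and 45.2 at its narrowest. The means were 46.3 ± 0.912 and 41.0 ± 2.98 (SD, n = 3 mice each), which gave a log2 fold change of 0.17 (SE 0.0673, edgeR unadjusted p = 0.0174 and adjusted p = 0.29). The interval, which takes no account of the number of genes tested, ran from 1.02- to 1.24-fold. Normal-Mn replicate 2 had the lowest value, and without it the unadjusted p of edgeR was 0.0919, with a log2 fold change of 0.13. Gm5475 on the opposite strand covers 6.3% of the exons of Slc11a2.

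One form of the DMT1 mRNA carries an iron-responsive element, a hairpin to which the iron regulatory proteins bind when iron is scarce. In the untranslated 3′ end, as in Slc11a2 and in Tfrc (the transferrin receptor), such elements are known to protect the mRNA from decay, whereas in the 5′ end of Slc40a1, which encodes the iron exporter ferroportin, the element restrains translation. The elements below are sequence matches in the mRNAs of Slc11a2, Tfrc and Slc40a1. Whether the iron regulatory proteins bound them in these cerebella was not tested. The elements were found in the GENCODE M21 transcripts (GRCm38) and are written 5′ to 3′ on the mRNA strand, with the loop of the hairpin in capitals.
Slc11a2, 3′ end: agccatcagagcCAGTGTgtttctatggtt
Tfrc, 3′ end, the first of 4 found: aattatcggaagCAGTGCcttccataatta
Slc40a1, 5′ end: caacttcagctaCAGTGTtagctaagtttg

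The search required a C, any 5 bases, the loop CAGTGN with A, C or T at its last place, and 5 bases able to pair with the first 5. An unpaired base was allowed within the pairing, a choice made after a first search without it had missed the Slc11a2 element. Whole coding transcripts were searched, not the untranslated ends alone, and G was allowed to pair with T. A match was found in 2.93% of 21901 genes with a coding transcript. Of the 10 Mn transporters 1 had a match, Slc11a2, in 1 of its 6 annotated coding transcripts. Because the search was widened to include this element, its match is not a finding and is not compared with that share. The deposited values sum all transcripts of a gene, so that forms with and without the element were not separated. Beside the 0.17 of Slc11a2, the log2 fold change was -0.05 for Tfrc (CPM 134 ± 11.4 against 139 ± 9.80, SD, n = 3 mice each, edgeR adjusted p = 0.802) and 0.05 for Slc40a1 (edgeR adjusted p = 0.948, CPM 6.80 ± 0.450 against 6.54 ± 1.53). Neither passed, and the diets overlapped for both.

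Slc11a1 (ENSMUSG00000026177, chromosome 1, 74375195 to 74386062, plus strand) encodes NRAMP1, which withdraws metals from the phagosomes of macrophages. It was counted 12 to 30 times per library, with a CPM of 1.10, 0.825 and 1.05 in the low-Mn mice and 1.12, 0.619 and 1.63 in the normal-Mn mice. The normal-Mn mice spanned the whole range of the low-Mn mice. At this depth a log2 fold change of -0.16 had an SE of 0.414 and an interval from 0.492- to 1.63-fold (edgeR adjusted p = 0.924). This wide interval holds both a fall and a rise.

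Of the Golgi genes, Atp2c1 was measured with the narrowest interval and Atp2c2 had too few counts to pass the filter for the test. Atp2c1 (ENSMUSG00000032570, chromosome 9, 105403539 to 105527319, minus strand) encodes SPCA1, the ATPase that loads the Golgi with calcium and Mn. Its CPM was 142, 138 and 145 in the low-Mn mice and 144, 140 and 149 in the normal-Mn mice. The diets overlapped, and the log2 fold change was -0.02 (SE 0.0468, edgeR adjusted p = 0.888), with an interval from 0.919- to 1.05-fold. Aste1 on the opposite strand covers 18.9% of the exons of Atp2c1, so that part of its counts is uncertain.

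Atp2c2 (ENSMUSG00000034112, chromosome 8, 119700009 to 119757717, plus strand) encodes SPCA2, the form of the pump found mainly in secretory epithelia. It had 5, 1 and 3 counts in the low-Mn libraries and 3, 5 and 4 in the normal-Mn libraries, too few to pass the filter on low counts. Over each diet this came to a CPM of 0.188 (9 counts, exact 95% Poisson interval 0.0858 to 0.356) and 0.197 (12 counts, 0.102 to 0.345), where the intervals cover counting error only. The intervals of the diets overlap. Without the filter on low counts Atp2c2 was tested with the other members, and 0 of the 10 were called.

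Tmem165 (ENSMUSG00000029234, chromosome 5, 76183880 to 76209245, plus strand) encodes the Golgi carrier whose loss impairs glycosylation. Its CPM was 29.0, 29.9 and 23.1 in the low-Mn mice and 31.3, 25.7 and 28.6 in the normal-Mn mice. Low-Mn replicate 3 was the lowest and the other 2 low-Mn mice lay among the normal-Mn mice. The means were 27.3 ± 3.68 and 28.5 ± 2.82 (SD, n = 3 mice each), which gave a log2 fold change of -0.06 (SE 0.0976, edgeR adjusted p = 0.862) with an interval from 0.832- to 1.10-fold.

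The P5 ATPases had intervals nearly as narrow as that of Atp2c1. Atp13a2 (ENSMUSG00000036622, chromosome 4, 140986873 to 141007330, plus strand) encodes a lysosomal polyamine exporter whose loss causes a form of parkinsonism and which protects cells from Mn. Its CPM was 158, 165 and 152 in the low-Mn mice and 156, 164 and 159.5 in the normal-Mn mice. The low-Mn mice held both extremes, and the log2 fold change was -0.01 (SE 0.0472, edgeR adjusted p = 0.941), with an interval from 0.925- to 1.06-fold.

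Atp13a1 (ENSMUSG00000031862, chromosome 8, 69791163 to 69807749, plus strand) encodes the P5 ATPase of the endoplasmic reticulum, which removes misplaced membrane helices and whose relative in yeast affects Mn in that compartment. Its CPM was 57.8, 59.4 and 54.8 in the low-Mn mice and 59.2, 57.4 and 56.8 in the normal-Mn mice. The normal-Mn mice lay within the range of the low-Mn mice. The log2 fold change was -0.01 (SE 0.0577, edgeR adjusted p = 0.962), with an interval from 0.913- to 1.08-fold.

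To compare levels between genes, the CPM was divided by the length of each gene's exons in kilobases. Atp13a2, Atp2c1, Atp13a1 and Tmem165 had the highest levels on this scale. Their proteins lie in organelles, but so do those of Slc11a1 and the Golgi pump gene Atp2c2, which had the lowest means. Atp13a2 was highest at a mean level of 26.5 CPM per kilobase (± 0.851, SD over all 6 libraries), and its lowest library, at 25.3, lay above the highest library of any other member. Atp2c1 and Atp13a1 followed, both at 14.7, and were not told apart because their ranges (14.2 to 15.3 and 14.0 to 15.2) overlapped. Tmem165 came next at 10.8 ± 1.16. Below these stood Slc11a2 at 6.87 ± 0.546, Slc39a14 at 3.57 ± 0.228 and Slc30a10 at 1.68 ± 0.283, each separated from its neighbours in every library. Slc39a8, at 0.448 ± 0.0733, and Slc11a1, at 0.285 ± 0.0916, overlapped, and Atp2c2 was last at 0.0589. Of the summed level of the 10 genes, Atp13a2 made up 33.3% and the importers Slc39a14 and Slc39a8 4.48% and 0.562%. With the length of the longest transcript in place of all exons, Tmem165 and Atp13a1 exchanged places and their ranges overlapped, Atp2c1 rose to 25.3 CPM per kilobase and no longer overlapped Atp13a1, Slc39a8 no longer overlapped Slc11a1, and the other members kept their places.

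**Figure D3:**
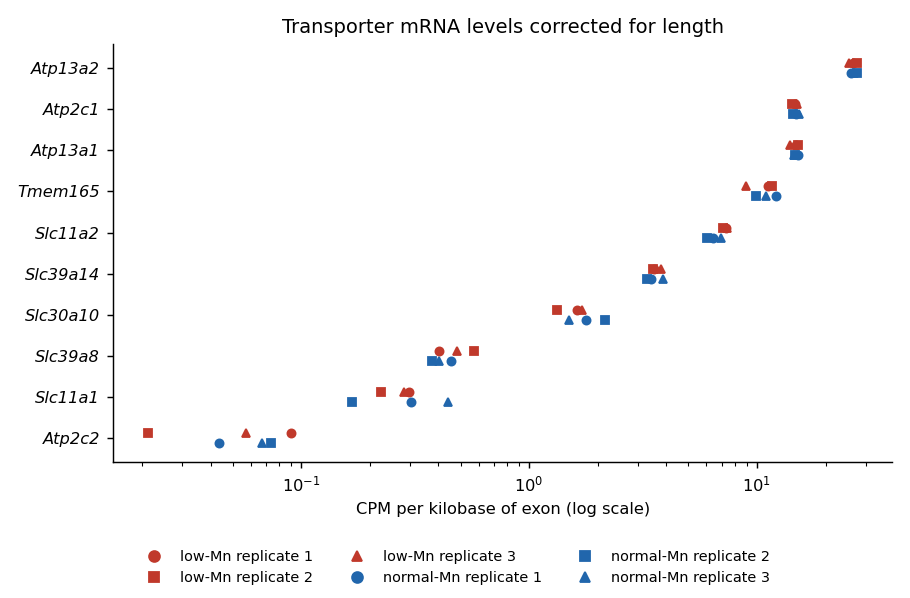
Level of the 10 transporters as CPM per kilobase of exon (x axis, log scale) in the 3 low-Mn (red) and 3 normal-Mn (blue) libraries, ordered by the mean. Levels run from 0.0589 for Atp2c2 to 26.5 for Atp13a2, and only 2 neighbouring pairs overlap over the 6 libraries, Atp2c1 with Atp13a1 and Slc39a8 with Slc11a1.

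The balance between members was compared within each library as a ratio of counts per kilobase, which does not depend on library scaling. In cerebellum of both diets, one form of each related pair was the more abundant. Slc39a14 stood above Slc39a8 by 8.71-, 6.03- and 7.80-fold in the low-Mn mice and 7.53-, 8.74- and 9.54-fold in the normal-Mn mice. Slc11a2 stood above Slc11a1 by 15.6- to 34.8-fold over the 6 libraries. Atp2c1 stood above Atp2c2 by 251-fold over the low-Mn libraries (exact 95% interval 132 to 550, from pooled counts) and 243-fold over the normal-Mn libraries (139 to 470). These intervals cover counting error only and not the spread between mice. In single libraries the fold was 148, 444 and 224 in the low-Mn mice and 292, 177 and 203 in the normal-Mn mice. Atp13a1 was at 0.551 to 0.560 of Atp13a2 in the low-Mn mice and 0.535 to 0.582 in the normal-Mn mice, the tightest of the 5 ratios.

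None of the ratios separated the diets. For the importer Slc39a14 over the exporter Slc30a10, the values were 2.16, 2.62 and 2.22 in the low-Mn mice and 1.93, 1.52 and 2.59 in the normal-Mn mice. Normal-Mn replicate 3 lay among the low-Mn mice, so the diets overlapped. The log2 ratio differed by 0.24 (exact two-sided permutation test, p = 0.4, where 3 mice against 3 allow no p below 0.1). It differed by -0.21 for Slc39a14 over Slc39a8 (p = 0.4), 0.25 for Slc11a2 over Slc11a1 (p = 0.5), 0.16 for Atp2c1 over Atp2c2 (p = 0.8) and 0.0035 for Atp13a1 over Atp13a2 (p = 1, all from the exact permutation test). Adjusted over the 5 ratios, each p was between 0.833 and 1.

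**Figure D4:**
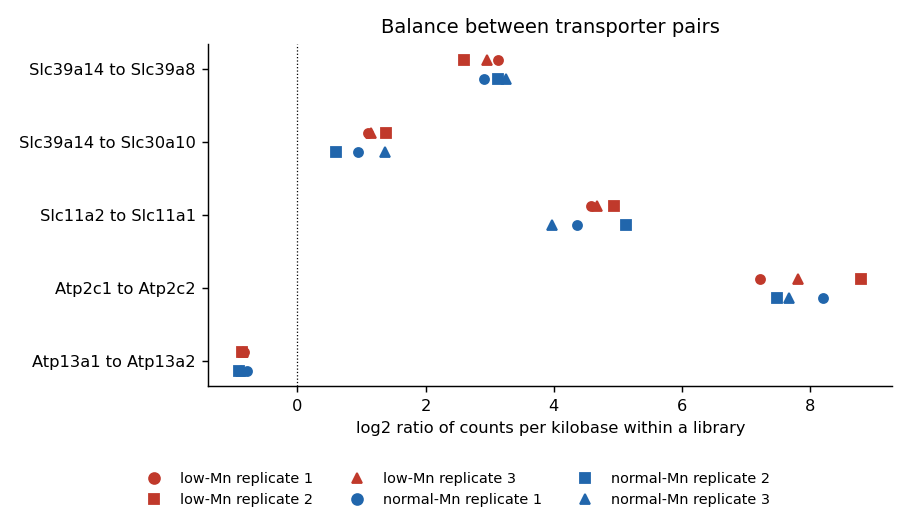
Log2 ratio of counts per kilobase between members (x axis) in each low-Mn (red) and normal-Mn (blue) library, where 0 marks equal levels. The diets overlap in all 5 ratios, and Atp13a1 to Atp13a2 varies least, with a log2 ratio near -0.85 in both diets.

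Genes that handle or use Mn next to these transporters were examined in the same fit. Over all genes tested, 0.595% were called, 12.1% had an unadjusted p under 0.05, and 17.1% had diets that did not overlap. The median log2 fold change of 8 other carriers and sensors was -0.01. Of these 0 were called, and the same 1 gene had an unadjusted p under 0.05 and diets that did not overlap. This was Trf, the plasma iron carrier transferrin, which can also bind Mn, with a CPM of 486, 505 and 526 in the low-Mn mice and 552, 582 and 565 in the normal-Mn mice. The diets did not overlap, with a log2 fold change of -0.16 (SE 0.0434, edgeR adjusted p = 0.0969), but 59.4% of its sequence is shared with other annotated genes. Trf was called by DESeq2 and by edgeR without the filter on low counts. Trf is made by oligodendrocytes and choroid plexus, whose markers are given above, and their part in its level was not tested. Golim4, which encodes GPP130, a Golgi protein that is routed to lysosomes when Mn rises, had a CPM of 46.0 ± 1.25 and 43.5 ± 4.03 (SD, n = 3 mice each; edgeR adjusted p = 0.702), and the channel kinase Trpm7, which passes divalent cations, 79.1 and 75.2 (adjusted p = 0.633).

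Of 14 Mn-dependent enzymes 0 were called and 2 had an unadjusted p under 0.05, against 0.595% and 12.1% of all genes tested. The median was 0.01, and the diets did not overlap for 4 of the 14, against 17.1% of all genes tested. Mgat1, which starts the complex branches of N-glycans in the Golgi, had a CPM of 43.8, 43.4 and 43.8 in the low-Mn mice and 47.9, 49.3 and 50.02 in the normal-Mn mice. The diets did not overlap, but the log2 fold change of -0.17 did not pass (SE 0.0604, edgeR adjusted p = 0.255). The prolidase gene Pepd had 36.7 ± 1.32 and 32.8 ± 1.79 (SD, n = 3 each; edgeR adjusted p = 0.374) and the galactosyltransferase gene B4galt2, of whose exons 28.2% lie in overlapping genes, 38.3 ± 1.68 and 35.2 ± 1.02 (adjusted p = 0.489). For both Pepd and B4galt2 the diets did not overlap.

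Of 21 other ZIP and ZnT genes, 19 were tested. Of these 0 were called and 4 had an unadjusted p under 0.05, against 0.595% and 12.1% of all genes tested. The median was -0.03, and the diets did not overlap for 4 of the 19, against 17.1% of all genes tested. Slc39a12, an astrocyte zinc importer, had a CPM of 64.9 ± 3.52 and 73.3 ± 2.88 (SD, n = 3 mice each), without overlap (log2 fold change -0.18, edgeR adjusted p = 0.199). Slc39a2 had 11.7 ± 0.316 and 8.85 ± 1.55 (SD, n = 3 each; log2 fold change 0.40, edgeR adjusted p = 0.231), and Slc30a7, a zinc carrier of the secretory pathway that shares part of its exons with an overlapping gene, 30.5 and 26.8 (adjusted p = 0.356). For both Slc39a2 and Slc30a7 the diets did not overlap. The median of 12 other P-type ATPases for calcium, copper and further substrates was 0.02. Of these 0 were called, against 0.595% of all genes tested, and 1 had an unadjusted p under 0.05, against 12.1%. This was Atp13a4, a relative of Atp13a2, at 20.7 ± 1.10 and 24.0 ± 2.13 (SD, n = 3 each; log2 fold change -0.22, edgeR adjusted p = 0.338). Next came Atp2a3, a calcium pump of the endoplasmic reticulum, at 339 and 317 (adjusted p = 0.429), and Atp13a3 at 94.9 and 90.2 (adjusted p = 0.655). The diets did not overlap for 2 of the 12, Atp13a4 and Atp2a3, against 17.1% of all genes tested.

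**Figure D5:**
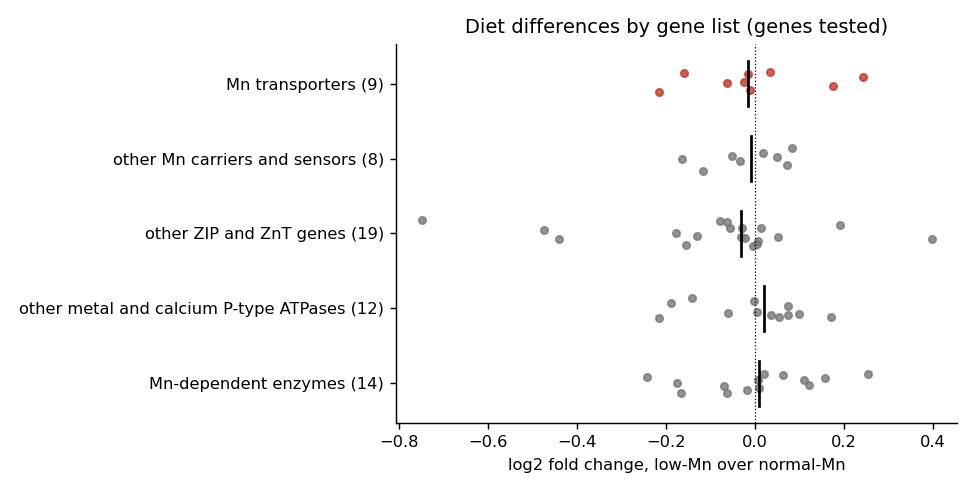
Diet difference on the log2 scale, low-Mn against normal-Mn (x axis), for the tested genes of each list, with the number tested in parentheses and a black bar at the median. The medians lie between -0.03 and 0.02, and none of the points belongs to a gene that edgeR called.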

How the data were processed

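RNA-seq counts of 6 cerebellar libraries, 3 per diet, were used. The brain metal and qPCR measurements were not analysed here. The authors deposited RSEM expected counts for each gene, estimated reads that need not be whole, without normalization. Reads had been aligned with STAR, and the submitters' processing notes list FastQC, DESeq2 and mm10 besides, with no version stated there. Every sample column was used. Low-Mn columns carry a replicate number alone and were assigned because the normal-Mn columns name their dose. Per-library values in the supplement matched the assigned column best in 6 of 6 cases over 137 genes. All 92 spike-in entries were 0 and were left out.

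Of 53715 genes, 53620 had a symbol in GENCODE M21, which also gave positions, exon lengths, overlaps and the sharing of 50-mers with other genes. Whether counting used the strand is not stated in the sources here, so genes with at least 10% overlap or sharing are called uncertain. Counts were rounded, filtered with filterByExpr (minimum count 10, minimum total 15), scaled by TMM and tested with glmQLFit and glmQLFTest of edgeR 4.0.16 in R 4.3.3, with Benjamini-Hochberg adjustment over 16123 genes. The test was first run on simulated counts with known answers. Intervals are the log2 fold change ± its standard error times the t quantile for 95%. Replicates of a diet differed beyond sampling noise (chi-square per degree of freedom 3.61 to 7.59). The methods describe the replicates as separate mice, whereas a figure legend calls them technical, in which case the p-values measure only the spread between libraries. Ratios used unrounded counts plus 0.5 and exact two-sided permutation tests (scipy 1.17.1). Alternatives were RLE and upper quartile scaling, no filter, a mean of at least 100 counts, unrounded counts, DESeq2 1.42.0, limma-voom (limma 3.58.1), the replicate number as a block, each replicate left out, a pseudocount of 0.1, rounded counts and the longest transcript. Figures were drawn with matplotlib 3.10.9.

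The members and lists were chosen with earlier results of these data known. The lists (other Mn carriers and sensors, other ZIP and ZnT genes, other P-type ATPases, Mn-dependent enzymes and markers of 9 cell types) came from general knowledge. All 10 members are named, and of each list the 3 genes with the smallest p. One marker is not reported here and was left out of its list, so no count of calls is given for that list.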

Additional observations from a re-analysis of the deposited data

How the results depend on the processing

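No transporter that was tested was called under any alternative (9 were tested in most, 10 with no filter, 7 with a mean of at least 100 counts, and DESeq2 gave an adjusted p to 6), and 0 was also the count under every alternative for the other ZIP and ZnT genes, the P-type ATPases and the Mn-dependent enzymes. Of the other Mn carriers and sensors, 1 gene, Trf, was called with no filter on low counts and 1, again Trf, with DESeq2. Over all genes 96 were called, 424 with no filter, 63 with limma-voom and 37 to 93 with a library left out (37 when low-Mn replicate 2 was left out, 47 for low-Mn replicate 1 and 45 for normal-Mn replicate 2). Of all calls, 69.8% were higher on the low-Mn diet, 58.9% with upper quartile scaling and 51.4% with no filter. The smallest adjusted p of any transporter was 0.209 to 0.653 with a library left out and 0.25 to 0.376 otherwise.

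In 70 of 70 comparisons under the other alternatives the transporters kept the sign of their fold change. With a library left out, 9 of 54 changed sign, all among genes near 0 or of few counts. The log2 fold change then ran from -0.018 to 0.10 for Slc39a14, -0.13 to 0.046 for Tmem165, -0.046 to 0.015 for Atp13a2, -0.038 to 0.020 for Atp13a1 and -0.46 to 0.19 for Slc11a1. It stayed above 0 for Slc11a2 (0.13 to 0.23) and Slc39a8 (0.11 to 0.36) and below 0 for Slc30a10 (-0.33 to -0.07, with -0.07 without normal-Mn replicate 2 and -0.12 without low-Mn replicate 2) and Atp2c1 (-0.05 to -0.0032). The difference in log2 ratio ran from -0.014 to 0.56 for Slc11a2 to Slc11a1, from -0.27 to 0.52 for Atp2c1 to Atp2c2, from -0.021 to 0.039 for Atp13a1 to Atp13a2, from 0.053 to 0.44 for Slc39a14 to Slc30a10 and from -0.32 to -0.055 for Slc39a14 to Slc39a8. The cause of these shifts was not tested.

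Replicate numbers did not pair the diets, with correlations of -0.039 to 0.033 between same-numbered mice and 2 of 6 libraries closest to their own number. With the replicate block 128 genes and 0 transporters were called, the log2 fold change of Slc11a2 was 0.17, and the ratios kept their differences (0.24 for Slc39a14 to Slc30a10). Depth limits Slc11a1, Slc39a8 and Atp2c2, which a mean of at least 100 counts removes.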
